A study of Mus musculus with 10 samples.

Results

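Haematopoietic mesoderm was compared with Foxa2- cardiac mesoderm (CM) in 5 of the 10 RNAseq samples of the series, chosen by their labels. The 2 samples labelled Flk1+ high, Flk1 being another name of the VEGF receptor Kdr, are called haematopoietic mesoderm here. The 3 samples labelled as Foxa2- cardiac mesoderm are called Foxa2- CM. Both populations came out of the same kind of culture of a single mouse embryonic stem cell (mESC) line, in which a truncated human CD4 (hCD4) on the cell surface reports Foxa2 expression. Embryoid bodies, which are floating aggregates of differentiating mESCs, were taken apart on day 2, reaggregated with VEGF at 5 ng/ml, Activin A at 8 ng/ml and BMP4 at 1 ng/ml, and sorted on day 5. The study's sort scheme gives haematopoietic mesoderm as Kdr+, Pdgfra- and hCD4-, drawn as a gate of high Kdr and low Pdgfra, and Foxa2- CM as Kdr+, Pdgfra+ and hCD4-. No source used here says that samples of a group were separate cultures, and p-values therefore measure the spread between these samples, which may be technical. Each group is a sort gate of this line and not a purified cell type.

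During gastrulation, mesoderm leaving the primitive streak divides into lineages with different fates. Mesoderm with high Kdr and without Pdgfra is known for giving rise to blood and endothelium, through haemangioblast-like precursors that use the transcription factors Etv2, Tal1, Lmo2, Gata2, Fli1 and Runx1. Mesoderm that keeps both Kdr and Pdgfra holds the precursors of the heart, which go on to use T-box, Hand, GATA and Nkx2-5 factors. The comparison asks which genes separate these mesoderm populations of the same culture at day 5.

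The 5 libraries held between 12616900 and 17287087 counts on genes, and the level of 3 counts lay between 0.174 and 0.238 CPM, the counts of a gene per 1000000 counts of its library. Such limits cover counting error only. CPM were computed with library sizes scaled by the trimmed mean of M-values (TMM). Values are given for samples 1 and 2 of haematopoietic mesoderm and samples 1, 2 and 3 of Foxa2- CM, in this order. Where they are joined by "against", the 2 haematopoietic mesoderm samples come first. The log2 change is that of haematopoietic mesoderm over Foxa2- CM, from the quasi-likelihood test of edgeR fitted to all 10 samples, with Benjamini-Hochberg adjusted p-values over 16180 genes. A gene was said to rise or fall where the adjusted p was under 0.05 and the change at least 2-fold. Per chi-square over genes, the 2 haematopoietic mesoderm samples differed from each other more (23.6 per degree of freedom) than any pair of Foxa2- CM samples (4.0 to 14.4). No pair agreed within sampling noise.

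The genes behind the gates were read as a check of the labels and not as results. Pdgfra read 34.3 and 23.8 CPM in haematopoietic mesoderm and 294, 306 and 259 CPM in Foxa2- CM (log2 change -3.29, adjusted p = 5.04e-05), so low Pdgfra RNA remained in the cells of the Pdgfra- gate. Kdr read 554 and 593 CPM against 392, 440.2 and 432 CPM, a difference that passed the adjusted p without reaching 2-fold (log2 change 0.44, adjusted p = 0.0319). Foxa2 was low in all 5 samples, at 0.69 and 0.788 CPM against 2.54, 0.873 and 0.903 CPM (log2 change -0.98, adjusted p = 0.55), against a mean of 184 CPM in the sorted endoderm of the series. Duplicate reads had been removed from these 50 nt reads without molecular identifiers, which can hold down the counts of abundant genes. Kdr reached 0.979 counts per exonic base and Aplnr 1.3. Kdr missed the adjusted p without any sample but haematopoietic mesoderm sample 1 (adjusted p from 0.0522 to 0.148).

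Sample 3 of Foxa2- CM stood apart from samples 1 and 2. Transcripts of the endothelium were higher in it, such as Tie1 at 0.248, 0.397 and 18.5 CPM and Cdh5 at 2.85, 1.98 and 43.4 CPM in samples 1, 2 and 3. It was the highest of the 3 Foxa2- CM samples for 654 of the 848 genes that rose in haematopoietic mesoderm (77.1%), and for 37.1% of all tested genes. The summed level of 29 endothelial surface and junction genes was 257 and 254 CPM in samples 1 and 2 and 591 CPM in sample 3, against 2445 and 2723 CPM in haematopoietic mesoderm. The visceral endoderm genes Apob and Cubn were also higher in sample 3. Apob read 8.97 and 16.2 CPM against 0.557, 0.159 and 17.4 CPM, and Cubn 15.4 and 10.9 CPM against 0.991, 0.873 and 10.8 CPM. The endoderm list as a whole was not, with a summed level of 283, 308 and 315 CPM in Foxa2- CM samples 1, 2 and 3. Sample 3 was the highest of them for 12 of its 22 tested members. The share of other cells in sample 3 was not tested. Some results that rest on sample 3 are given with and without it, and others only with it.

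Of the 16180 genes tested, 848 rose (5.24%) and 1036 fell (6.4%) in haematopoietic mesoderm. These shares are the background for the counts of each gene list. In bulk RNA, more cells with a transcript and more RNA per cell cannot be told apart. Without Foxa2- CM sample 3, 899 genes rose and 978 fell. The median change of all tested genes was 0.018. The plot of difference against level shows these genes over the range of expression.

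**Figure D1:**
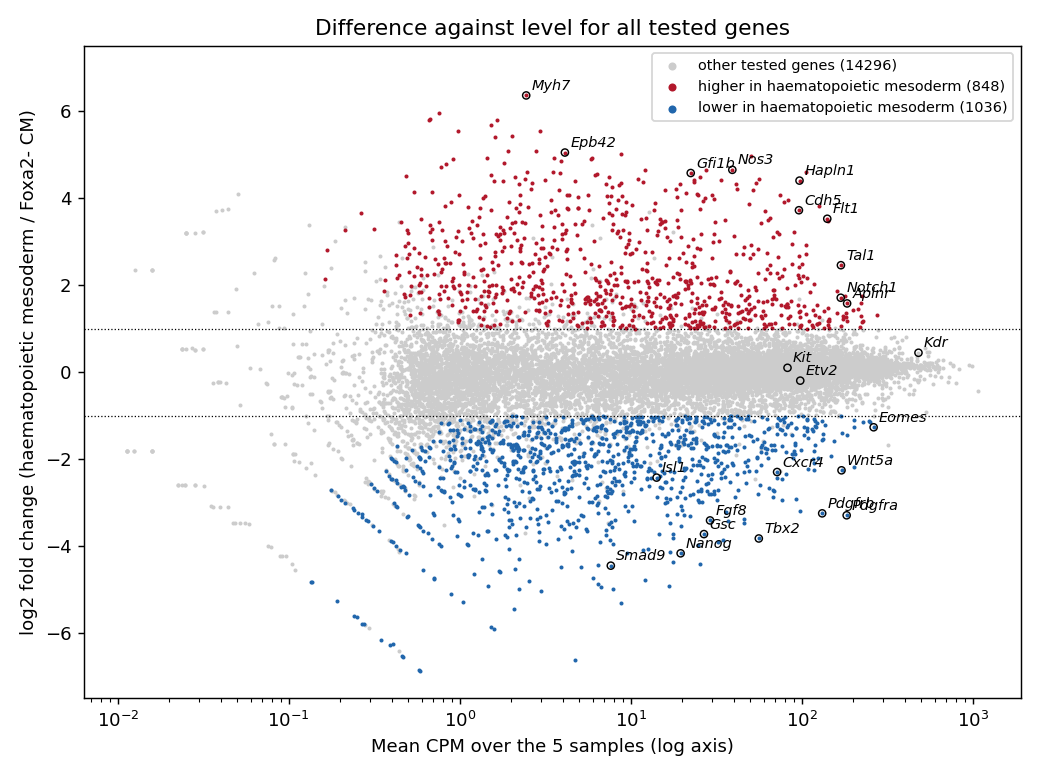
Each point is 1 of 16180 tested genes, with the mean CPM over the 5 samples on a log x axis and the log2 fold change of haematopoietic mesoderm over Foxa2- CM on the y axis. The 848 red genes rose, the 1036 blue genes fell, dotted lines mark a 2-fold change, circles mark named genes, and 3 genes beyond 7.5 on the y axis are not drawn. Endothelial and blood regulators such as Nos3, Cdh5 and Tal1 lie above, Pdgfra, Tbx2 and Nanog lie below, and Kdr, Kit and Etv2 lie between the dotted lines.

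Transcription factors of blood and endothelium were higher in haematopoietic mesoderm almost as a whole. Of 29 tested members of this list, 25 rose, against a background of 5.24% of all tested genes, with a median log2 change of 2.63 beside 0.018 over all genes. Both haematopoietic mesoderm samples lay above all Foxa2- CM samples for 26 of them, as they did for 22.9% of all tested genes. Etv2, Zfpm1, Elf1 and Mef2c did not pass. Gfi1b, a repressor needed for red cells and platelets, rose most, from 0.372, 0.476 and 5.53 CPM in Foxa2- CM to 55.8 and 50.1 CPM (log2 change 4.58, SE 0.88, adjusted p = 0.006; chr2:28609450-28621982 in GRCm38). Gata1, the erythroid and megakaryocyte GATA factor, read 58.2 and 51 CPM in haematopoietic mesoderm and 0.31, 1.19 and 6.15 CPM in Foxa2- CM (log2 change 4.38, SE 0.81, adjusted p = 0.00499). Ikzf1, a zinc finger factor of lymphoid and early blood cells, read 137 and 127 CPM against 0.929, 1.91 and 14.7 CPM (log2 change 4.45, SE 0.86, adjusted p = 0.00622). In all 3 the haematopoietic mesoderm samples lay close together and Foxa2- CM sample 3 lay between them and the other CM samples. Myb, needed for definitive blood, read 77.2 and 79.8 CPM against 1.61, 2.22 and 6.88 CPM (log2 change 4.43, SE 0.57, adjusted p = 0.000986), and Spi1, the myeloid factor PU.1, read 20.3 and 13 CPM against 0.433, 0.0794 and 1.81 CPM (log2 change 4.34, SE 0.65, adjusted p = 0.00195). Gfi1b, Gata1 and Ikzf1 had log2 changes of 6.95, 6.24 and 6.57 without Foxa2- CM sample 3.

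Lyl1, a relative of Tal1, read 61.6 and 62.6 CPM in haematopoietic mesoderm and 1.49, 1.51 and 8.3 CPM in Foxa2- CM (log2 change 4.01, adjusted p = 0.00308), and the transcriptional partner Cbfa2t3 read 187 and 174 CPM against 5.14, 5 and 25.3 CPM (log2 change 3.91, adjusted p = 0.00491). The SoxF factors of endothelium, Sox7 at 177 and 213 CPM against 8.42, 9.53 and 43.6 CPM (log2 change 3.23, adjusted p = 0.016) and Sox18 at 47.9 and 91.8 CPM against 4.15, 3.65 and 17.7 CPM (log2 change 3.02, adjusted p = 0.00954), rose too. Tal1, which directs mesoderm towards blood and the blood-forming endothelium, had among the largest differences in CPM of all genes. It read 328 and 339 CPM against 45.5, 34.9 and 101 CPM (log2 change 2.46, SE 0.42, adjusted p = 0.00347; chr4:115056426-115071755). The ETS factors Fli1, at 175 and 191 CPM against 13.9, 17.8 and 39.4 CPM (log2 change 2.94, adjusted p = 0.00504), and Erg, at 59.8 and 78.1 CPM against 1.11, 1.83 and 9.14 CPM (log2 change 4.06, adjusted p = 0.00259), rose as well. Lmo2, Gata2 and Runx1 were raised less, and all 3 were above 50 CPM in every Foxa2- CM sample. Lmo2, the bridging partner of Tal1, read 154 and 152 CPM against 58.8, 54.7 and 63.7 CPM (log2 change 1.37, SE 0.16, adjusted p = 0.000742). Gata2 read 235 and 226 CPM against 81.7, 72.2 and 95.2 CPM (log2 change 1.47, SE 0.18, adjusted p = 0.000753). Runx1, needed for the first blood stem cells, read 258 and 249 CPM against 67.5, 81.9 and 144 CPM (log2 change 1.37, SE 0.39, adjusted p = 0.0353). Etv2, the ETS factor that opens the haemato-endothelial programme, read 88 and 92.4 CPM against 106, 113 and 91.1 CPM, with overlapping groups (log2 change -0.20, adjusted p = 0.315). Zfpm1, the cofactor of Gata1, read 206 and 215 CPM against 184, 188 and 167 CPM (log2 change 0.23, adjusted p = 0.656). Leaving out each sample in turn gave 21 to 25 risen members, with 25 without Foxa2- CM sample 3, and DESeq2 gave 25. Sox7 lost its call without Foxa2- CM sample 1 or 2 or haematopoietic mesoderm sample 2 (adjusted p from 0.0523 to 0.0643). Sox18 lost its call without haematopoietic mesoderm sample 2 (adjusted p = 0.0551). Runx1 lost its call without any sample but Foxa2- CM sample 3 (adjusted p from 0.0815 to 0.132).

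**Figure D2:**
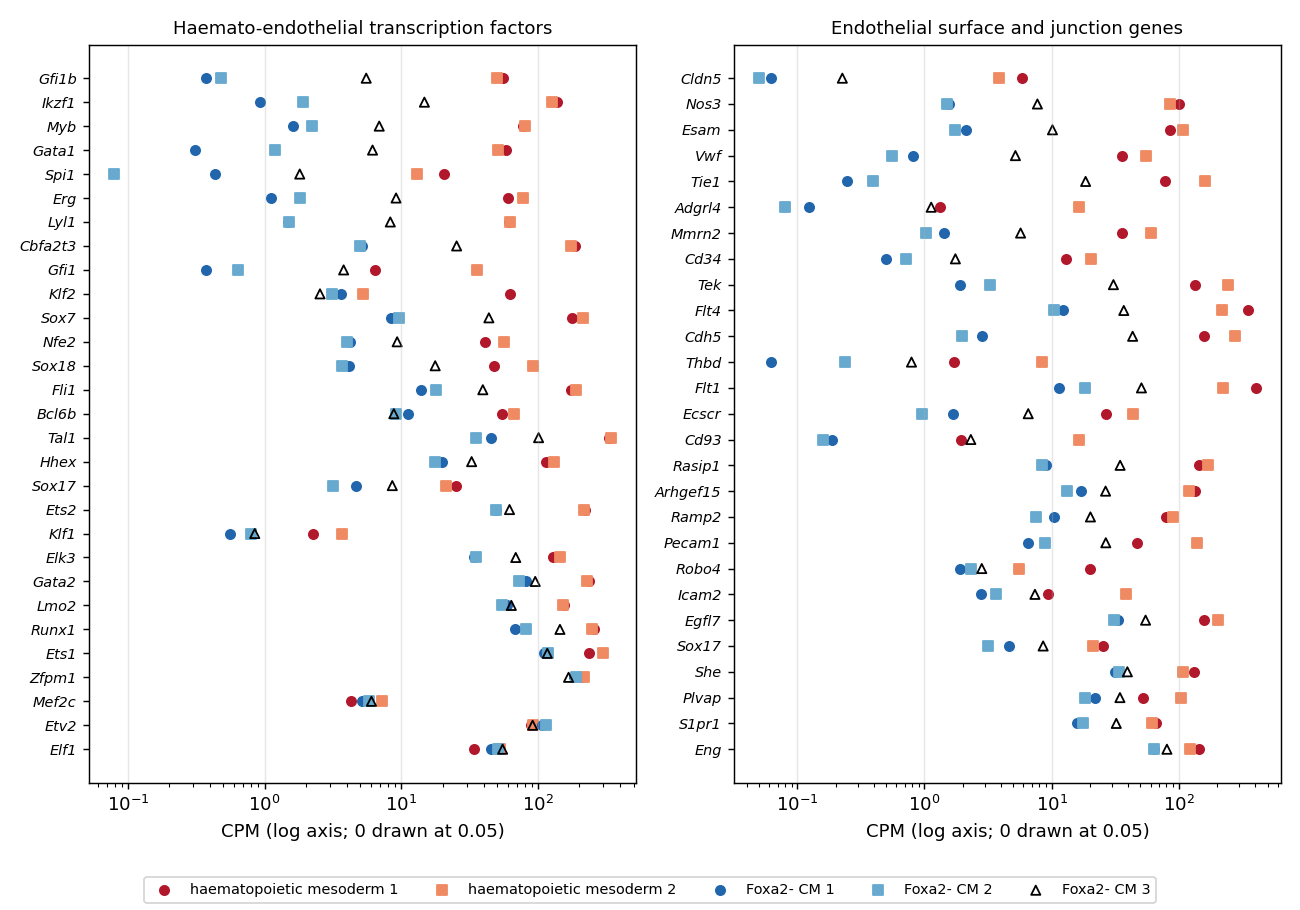
CPM of each tested member on a log x axis, 1 row per gene ordered by log2 fold change, with 29 transcription factors on the left and 27 endothelial surface and junction genes on the right. Filled red and orange symbols are the 2 haematopoietic mesoderm samples, blue symbols are Foxa2- CM samples 1 and 2, and open triangles are Foxa2- CM sample 3, which lies to the right of the blue symbols for 24 factors and 27 surface genes. The groups cross for Mef2c, Etv2 and Elf1 on the left and for Cd93 on the right.

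Endothelial surface and junction genes differed in the same direction. Of 27 tested members 26 rose, with a median log2 change of 3.48. Eng, a coreceptor of TGF-beta family ligands, passed the adjusted p at less than 2-fold, at 144 and 123 CPM against 63.8, 64.1 and 80.8 CPM (log2 change 0.94, adjusted p = 0.00102). Cldn5, a claudin of endothelial tight junctions, rose from near the limit of 3 counts, at 5.9 and 3.86 CPM in haematopoietic mesoderm and 0.0619, 0 and 0.226 CPM in Foxa2- CM (log2 change 5.42, SE 0.66, adjusted p = 0.000782). Nos3, the endothelial nitric oxide synthase, read 101 and 84.7 CPM against 1.55, 1.51 and 7.73 CPM (log2 change 4.65, SE 0.60, adjusted p = 0.000943), although chr5:24364810-24384474 holds exons of the antisense gene Atg9b over 32.3% of its exonic bases and the library kit did not mark strand. Esam, an adhesion molecule of endothelial contacts, read 85.4 and 107 CPM against 2.11, 1.75 and 10.2 CPM (log2 change 4.33, SE 0.61, adjusted p = 0.00139). Vwf, the clotting factor carried by endothelium and platelets, read 36 and 55.2 CPM against 0.805, 0.556 and 5.19 CPM (log2 change 4.33, SE 0.80, adjusted p = 0.00518). For these 4 genes the lowest haematopoietic mesoderm sample lay far above the highest Foxa2- CM sample.

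The values of the Tie receptors and VE-cadherin depended on Foxa2- CM sample 3. Tie1 read 78.4 and 162 CPM in haematopoietic mesoderm and 0.248, 0.397 and 18.5 CPM in Foxa2- CM (log2 change 4.19, SE 1.24, adjusted p = 0.044), and the change was 8.54 without sample 3 (adjusted p = 0.000488). Tek, the angiopoietin receptor, read 135 and 245 CPM against 1.92, 3.25 and 30.6 CPM (log2 change 3.96, SE 0.93, adjusted p = 0.0156), with a change of 6.22 without sample 3 (adjusted p = 0.000411). Cdh5, the cadherin of endothelial junctions, read 158 and 275 CPM against 2.85, 1.98 and 43.4 CPM (log2 change 3.72, SE 1.01, adjusted p = 0.0278), with a change of 6.46 without sample 3 (adjusted p = 0.000248). All 3 lost the call when haematopoietic mesoderm sample 2 was left out (adjusted p = 0.151, 0.0649 and 0.104) and when Foxa2- CM sample 2 was (adjusted p = 0.107, 0.0559 and 0.0689), and Tie1 and Cdh5 also without Foxa2- CM sample 1 (adjusted p = 0.0933 and 0.0788). DESeq2 gave no adjusted p for Tie1, Tek and Cdh5. Pecam1, or CD31, read 46.7 and 138 CPM against 6.5, 8.81 and 26.7 CPM (log2 change 2.71, adjusted p = 0.0102), with the haematopoietic mesoderm samples well apart. Over the list, between 19 and 27 members rose with each sample left out, the fewest without haematopoietic mesoderm sample 2 or Foxa2- CM sample 2 and the most without Foxa2- CM sample 3, and 23 rose with DESeq2. Pecam1 lost its call without haematopoietic mesoderm sample 2 (adjusted p = 0.0976), and the log2 change was 1.70 without haematopoietic mesoderm sample 2.

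Blood cell genes rose in part, and many markers of mature blood cells were too low to test. Of 15 tested members 9 rose, and 14 of the 29 listed genes were too low to test. Itga2b, or CD41, a surface marker of the earliest blood progenitors, read 122 and 154 CPM in haematopoietic mesoderm and 5.39, 5.32 and 20.5 CPM in Foxa2- CM (log2 change 3.71, SE 0.54, adjusted p = 0.0017). Vav1 read 10.5 and 11.6 CPM against 0.248, 0.159 and 1.07 CPM and Rac2 5.77 and 6.62 CPM against 0.0619, 0.0794 and 0.677 CPM, both parts of signalling to the cytoskeleton in blood cells (log2 change 4.39, adjusted p = 0.00111, and log2 change 4.36, adjusted p = 0.00324). Laptm5, a lysosomal membrane protein of blood cells, read 18.3 and 15.6 CPM against 0.681, 0.635 and 2.03 CPM (log2 change 3.88, adjusted p = 0.000504). Mpo, the peroxidase of myeloid granules, read 9.98 and 12.2 CPM against 0.433, 0.635 and 1.3 CPM (log2 change 3.77, adjusted p = 0.000782). Alas2, the first enzyme of erythroid haem synthesis, read 12.5 and 26.5 CPM against 1.98, 1.67 and 4.18 CPM (log2 change 2.88, adjusted p = 0.0022). The embryonic globin Hbb-bh1 differed between the haematopoietic mesoderm samples themselves, at 2.95 and 23.2 CPM against 0.186, 0.159 and 3.22 CPM, and did not pass (log2 change 3.38, adjusted p = 0.074). The embryonic alpha globin Hba-x had no count in any of the 5 samples, which allows up to 0.238 CPM. Ptprc, the pan-leukocyte marker CD45, had none in haematopoietic mesoderm. The adult globins have near-identical copies, which uniquely aligned reads cannot tell apart. Kit, the receptor for stem cell factor, read 60.8 and 112 CPM against 58.3, 76.2 and 106 CPM (log2 change 0.10, adjusted p = 0.863), with overlapping groups. Hbb-bh1 passed without Foxa2- CM sample 3 or haematopoietic mesoderm sample 1 (adjusted p = 0.0134 and 0.0243).

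Among cardiac transcription factors, Tbx2, Tbx20, Isl1, Hand1, Hand2 and Nkx2-5 fell. Of 16 tested members 6 fell, against 6.4% of all genes, 2 rose and 8 did not pass both limits. DESeq2 also gave 6 that fell, with 1 that rose, and 1 fell when tested against a 2-fold change. The T-box gene Tbx3 did not pass, with a log2 change between -1.10 and -0.56 when a sample was left out. Tbx2, a T-box repressor of the early heart and its canal, fell most, at 2.51 and 10.4 CPM in haematopoietic mesoderm and 81.8, 78.8 and 107 CPM in Foxa2- CM (log2 change -3.83, SE 0.48, adjusted p = 0.000846; chr11:85832551-85841948). Isl1, a marker of second heart field progenitors, read 5.46 and 2.28 CPM against 16.1, 20.4 and 26.6 CPM (log2 change -2.43, SE 0.47, adjusted p = 0.00599). Tbx20 read 16.9 and 56.2 CPM against 124, 164 and 227 CPM (log2 change -2.24, SE 0.47, adjusted p = 0.00926). Hand2, a basic helix-loop-helix factor of the right ventricle, read 3.51 and 17.1 CPM against 40.2, 45.9 and 64.1 CPM (log2 change -2.30, SE 0.64, adjusted p = 0.0312). The related factor Hand1 read 33 and 69.9 CPM against 151, 177 and 164 CPM (log2 change -1.68, SE 0.35, adjusted p = 0.00923). In Tbx2, Tbx20 and both Hand genes, haematopoietic mesoderm sample 1 was lower than sample 2, and all Foxa2- CM samples lay above both. Hand2 lost its call without any sample but haematopoietic mesoderm sample 2 (adjusted p from 0.0607 to 0.0812), and the log2 change was -3.85 without haematopoietic mesoderm sample 2.

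Nkx2-5, the homeobox factor of cardiac progenitors, fell and was low in both populations at this day, at 3.33 and 4.02 CPM in haematopoietic mesoderm and 14.2, 10 and 10.1 CPM in Foxa2- CM (log2 change -1.64, SE 0.25, adjusted p = 0.0021). Gata4 read 85.4 and 192 CPM against 238, 250.4 and 215 CPM (log2 change -0.76, adjusted p = 0.14). Gata6 read 78.1 and 84.5 CPM against 131, 136 and 116 CPM (log2 change -0.65, adjusted p = 0.0222), less than 2-fold lower. RNA of Gata4 and Gata6 was therefore present in both haematopoietic mesoderm samples, and which cells of the gate held it was not tested. Zfpm2, the cofactor of Gata4 in the heart, went the other way and rose, at 13.1 and 22.1 CPM against 4.77, 2.7 and 4.85 CPM (log2 change 2.08, SE 0.35, adjusted p = 0.00312). Hopx, a small homeodomain protein without DNA binding, rose at a low level, 2.01 and 1.5 CPM against 0.433, 0.635 and 0.79 CPM (log2 change 1.49, adjusted p = 0.0287). Gata4 passed without haematopoietic mesoderm sample 2 (adjusted p = 0.0129). Gata6 missed the adjusted p without Foxa2- CM sample 1 or 2 or haematopoietic mesoderm sample 1 (adjusted p from 0.0533 to 0.0895). Hopx lost its call without any sample but Foxa2- CM sample 3 (adjusted p from 0.0514 to 0.13). Hopx missed the adjusted p with DESeq2 (adjusted p = 0.14).

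Of 19 tested sarcomere and smooth muscle genes 3 fell and 2 rose, where 6.4% and 5.24% of all tested genes did. With any 1 sample left out 2 fell, and none did when tested against a 2-fold change. Myh7, a cardiac myosin heavy chain, read 5.27 and 6.77 CPM in haematopoietic mesoderm and 0.0619, 0.0794 and 0.0564 CPM in Foxa2- CM, with 170 counts in the haematopoietic mesoderm samples together and 3 in the Foxa2- CM samples together. The ratio of these pooled counts was 92.0, with a 95% counting interval from 30.9 to 450.3, and the antisense transcript Mhrt overlaps this gene. Myh6 read 14.7 and 6.69 CPM against 2.23, 1.03 and 1.86 CPM (log2 change 2.63, SE 0.38, adjusted p = 0.00161). Ryr2, the calcium release channel of cardiomyocytes, fell, at 0.753 and 2.36 CPM against 7.68, 10.8 and 30.8 CPM (log2 change -3.43, SE 0.75, adjusted p = 0.0108). Tnnt2, cardiac troponin T, read 2.57 and 7.8 CPM against 8.48, 6.59 and 5.93 CPM (log2 change -0.45, adjusted p = 0.582). The smooth muscle gene Cnn1 fell, at 8.78 and 3.31 CPM against 23.8, 21 and 16.8 CPM (log2 change -1.75, adjusted p = 0.00744). Tagln passed by a small margin, at 14.5 and 11.3 CPM against 22, 22.4 and 33.2 CPM (log2 change -1.01, adjusted p = 0.0403), and overlaps other genes over 67.9% of its exonic bases. Ryr2 lost its call without haematopoietic mesoderm sample 1 (adjusted p = 0.0553). Cnn1 had a log2 change of -2.63 without haematopoietic mesoderm sample 1. Tagln lost its call without any 1 of the 5 samples (adjusted p from 0.0609 to 0.189).

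Factors of the primitive streak and of mesoderm just leaving it were lower in haematopoietic mesoderm. Of 19 tested members 10 fell and 9 did not pass both limits, with a median log2 change of -1.35, and 7 to 10 fell with a sample left out. Gsc, the homeobox gene of the organizer and anterior streak, read 1.57 and 5.04 CPM in haematopoietic mesoderm and 54.3, 44.5 and 28.8 CPM in Foxa2- CM (log2 change -3.73, SE 0.48, adjusted p = 0.00102). Fgf8, which streak cells need in order to migrate away, read 2.89 and 5.83 CPM against 50, 48.4 and 38.5 CPM (log2 change -3.41, SE 0.28, adjusted p = 0.000151). Cdx1, a caudal-type homeobox gene of the posterior embryo, read 1.88 and 0.473 CPM against 18.5, 10.3 and 5.93 CPM (log2 change -3.24, SE 0.63, adjusted p = 0.00615). Its relative Cdx2 read 8.78 and 10.9 CPM against 40.8, 52.8 and 77.1 CPM (log2 change -2.53, SE 0.61, adjusted p = 0.0169). Mesp1, which marks the earliest cardiovascular mesoderm, read 11.4 and 1.1 CPM against 62, 62.9 and 23.2 CPM (log2 change -2.95, SE 0.82, adjusted p = 0.0312). Lhx1, a LIM homeobox factor of the anterior streak, read 32.1 and 14.2 CPM against 158, 150.2 and 49.4 CPM (log2 change -2.34, adjusted p = 0.0199). Eomes, the T-box factor upstream of Mesp1, was among the 5 largest losses in CPM, at 81 and 205 CPM against 345, 401 and 286 CPM (log2 change -1.27, SE 0.32, adjusted p = 0.0218). For each of these the groups did not overlap, as was the case for 23.1% of all tested genes in this direction. Cdx2 lost its call without haematopoietic mesoderm sample 1 or 2 (adjusted p = 0.0651 and 0.0594). Mesp1 lost its call without Foxa2- CM sample 1 or 2 or haematopoietic mesoderm sample 2 (adjusted p from 0.065 to 0.085), and the log2 change was -5.47 without haematopoietic mesoderm sample 1. Lhx1 lost its call without Foxa2- CM sample 1 or 2 or haematopoietic mesoderm sample 2 (adjusted p from 0.0546 to 0.102). Eomes lost its call without Foxa2- CM sample 1 or 2 (adjusted p = 0.0555 and 0.0649). Eomes was under 2-fold without haematopoietic mesoderm sample 1, and the log2 change was -0.74 without haematopoietic mesoderm sample 1 and -2.10 without haematopoietic mesoderm sample 2.

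T, or Brachyury, the founding T-box factor of the streak, did not follow the list. It read 209 and 80.2 CPM in haematopoietic mesoderm and 103, 98.6 and 81.1 CPM in Foxa2- CM (log2 change 0.62, adjusted p = 0.196), and the log2 change was -0.23 without haematopoietic mesoderm sample 1. Nodal, the ligand that starts the streak, was at 1.07 CPM in haematopoietic mesoderm sample 1 and 23.7 CPM in sample 2, against 33.9, 28 and 30.8 CPM in Foxa2- CM (log2 change -1.35, adjusted p = 0.243). T passed without haematopoietic mesoderm sample 2 (adjusted p = 0.00205). Nodal passed without haematopoietic mesoderm sample 2 (adjusted p = 3.01e-05).

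**Figure D3:**
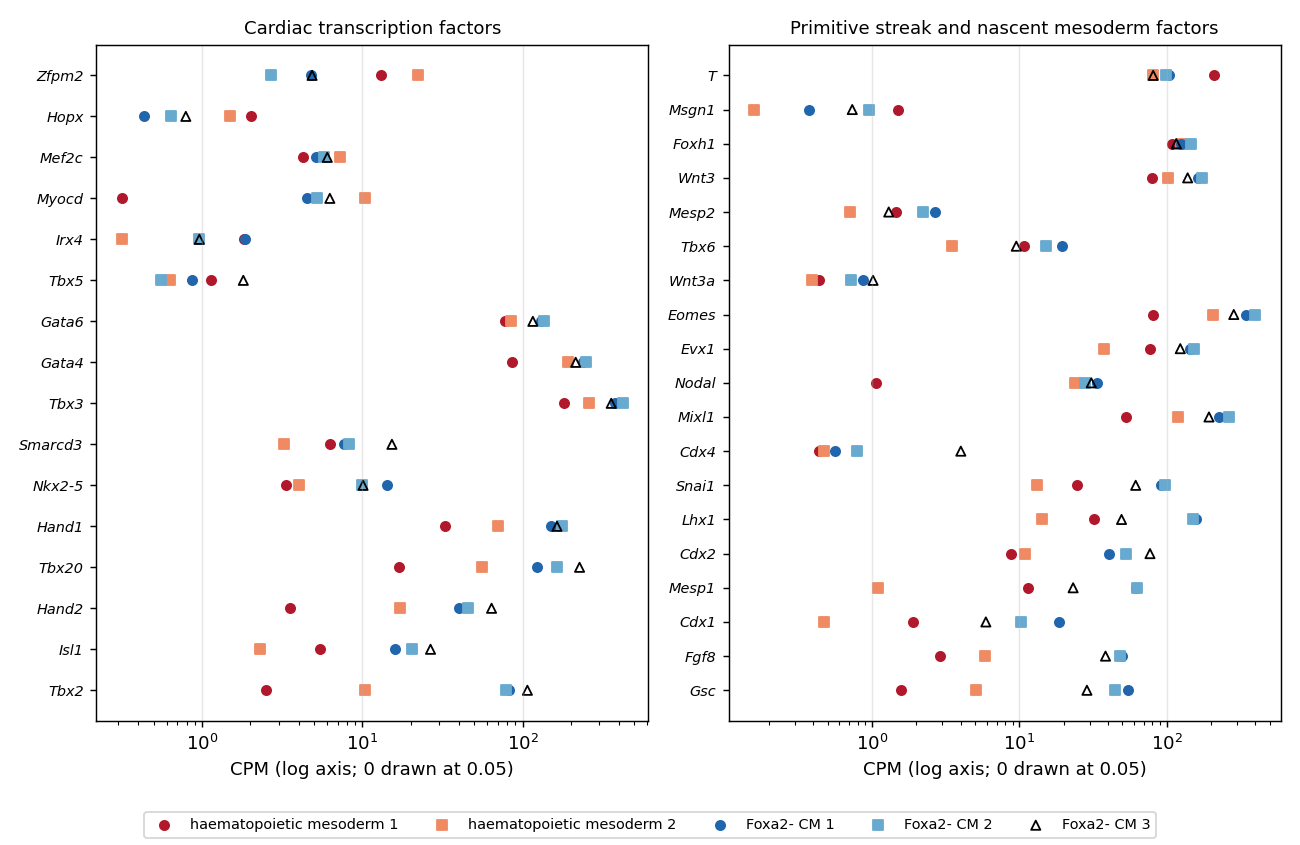
CPM of each tested member on a log x axis, 1 row per gene ordered by log2 fold change, with 16 cardiac transcription factors on the left and 19 primitive streak and nascent mesoderm factors on the right. Red circles and orange squares are haematopoietic mesoderm samples 1 and 2, blue symbols are Foxa2- CM samples 1 and 2, and open triangles are Foxa2- CM sample 3. Both haematopoietic mesoderm samples lie left of all Foxa2- CM samples in 10 cardiac and 14 streak rows, as for 23.1% of all tested genes. The samples of haematopoietic mesoderm lie far apart for Nodal, Mesp1 and Myocd.

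Genes of the pluripotent epiblast, some of which persist in the anterior streak, were also lower. Of all tested genes 6.4% fell and 5.24% rose. Of 17 tested members 9 fell and 2 rose, and 4 rose without haematopoietic mesoderm sample 2. Nanog read 1.82 and 1.65 CPM in haematopoietic mesoderm and 35.9, 35.2 and 23.5 CPM in Foxa2- CM (log2 change -4.17, SE 0.24, adjusted p = 4.33e-05; chr6:122707489-122714633), a pluripotency factor with the smallest adjusted p of all genes named here. Otx2, a homeobox factor of the epiblast and anterior embryo, read 5.08 and 4.73 CPM against 53.4, 44.4 and 15.5 CPM (log2 change -2.93, SE 0.50, adjusted p = 0.00356). Tdgf1, the Nodal coreceptor Cripto, read 21.1 and 7.09 CPM against 98.5, 108 and 51.8 CPM (log2 change -2.59, SE 0.46, adjusted p = 0.00445). Sox2 read 1.51 and 2.84 CPM against 9.47, 13.9 and 13.3 CPM (log2 change -2.51, SE 0.28, adjusted p = 0.000504). With each sample left out in turn, 9 members fell. Utf1, a chromatin protein of pluripotent cells, read 1.38 and 1.34 CPM against 8.24, 4.92 and 7.79 CPM (log2 change -2.36, adjusted p = 0.000509). Pou5f1, or Oct4, read 41.8 and 19.6 CPM against 57.9, 63.2 and 36.6 CPM and did not pass (log2 change -0.77, adjusted p = 0.119). Dppa4 and Esrrb, also used by pluripotent cells, went the other way, with Dppa4 at 16.8 and 13.5 CPM against 0.805, 0.953 and 2.09 CPM (log2 change 3.54, adjusted p = 0.00066) and Esrrb at 14.7 and 8.43 CPM against 1.61, 1.11 and 3.33 CPM (log2 change 2.49, adjusted p = 0.00815). Pou5f1 passed without Foxa2- CM sample 3 or haematopoietic mesoderm sample 1 (adjusted p = 0.0489 and 0.0124).

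Among factors of paraxial and lateral plate mesoderm, 10 of 22 tested members fell and 3 rose, beside 6.4% and 5.24% of all tested genes. Foxf1, a forkhead factor of lateral plate and visceral mesoderm, read 11.2 and 17.4 CPM in haematopoietic mesoderm and 84.9, 101 and 128 CPM in Foxa2- CM (log2 change -2.88, SE 0.45, adjusted p = 0.00236). Osr1, of lateral plate and kidney precursors, read 0.251 and 0.473 CPM against 2.17, 2.22 and 9.37 CPM (log2 change -3.68, SE 0.98, adjusted p = 0.026). Pax2, of the intermediate mesoderm, read 0.188 and 1.1 CPM against 4.33, 4.52 and 11.1 CPM (log2 change -3.43, SE 0.74, adjusted p = 0.0101). Tcf21, of the epicardium and other visceral mesoderm, read 0.188 and 0.236 CPM against 1.49, 1.19 and 1.92 CPM (log2 change -2.83, adjusted p = 0.00348). Twist2 read 0.941 and 1.58 CPM against 4.33, 4.37 and 8.13 CPM (log2 change -2.17, adjusted p = 0.00617), with 46.5% of its exonic bases shared with another gene. Osr1 and Pax2 were low in all samples, and Foxf1 was abundant in Foxa2- CM. Foxc2, a forkhead factor used by somites and by endothelium, rose, at 12 and 13.5 CPM against 1.05, 1.59 and 2.09 CPM (log2 change 3.01, SE 0.39, adjusted p = 0.00104). Tcf15 of the somites read 5.08 and 7.09 CPM against 1.36, 0.794 and 1.3 CPM (log2 change 2.37, adjusted p = 0.00323). Nr2f2, known for venous endothelium, read 1.76 and 1.5 CPM against 0.186, 0.318 and 0.282 CPM (log2 change 2.62, adjusted p = 0.016). Osr1 lost its call without haematopoietic mesoderm sample 1 or 2 (adjusted p = 0.108 and 0.082). Nr2f2 lost its call without Foxa2- CM sample 1 or haematopoietic mesoderm sample 1 (adjusted p = 0.0646 and 0.0553).

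Of 16 tested genes of the VEGF and angiopoietin pathway 5 rose and 2 ligands fell, beside 5.24% and 6.4% of all tested genes. All that rose were receptors, including Tie1 and Tek described above. Only 3 rose without Foxa2- CM sample 2 or haematopoietic mesoderm sample 2, and 3 with DESeq2. Flt1, the high-affinity VEGF receptor that can act as a decoy, had the largest gain in CPM among genes that rose. It read 403 and 222 CPM in haematopoietic mesoderm and 11.5, 18.2 and 50.9 CPM in Foxa2- CM (log2 change 3.53, SE 0.60, adjusted p = 0.00348; chr5:147561604-147726011). Flt4, the receptor for VEGF-C, read 349.7 and 219 CPM against 12.4, 10.5 and 37 CPM (log2 change 3.82, SE 0.51, adjusted p = 0.00117). Both receptors were higher in haematopoietic mesoderm sample 1 than in sample 2. Plxnd1, a semaphorin receptor of blood vessels, read 299 and 389 CPM against 117, 122 and 183 CPM (log2 change 1.29, SE 0.23, adjusted p = 0.00477), while its ligand Sema3e fell, at 3.89 and 2.36 CPM against 12.4, 12.6 and 21.3 CPM (log2 change -2.29, SE 0.36, adjusted p = 0.00237). Vegfc, the ligand of Flt4, fell, at 7.28 and 24.6 CPM against 60.9, 64.5 and 74.3 CPM (log2 change -2.07, SE 0.41, adjusted p = 0.00668). Vegfa read 147 and 162 CPM against 117, 120.0 and 111 CPM (log2 change 0.41, adjusted p = 0.102), and the coreceptor Nrp2 passed at less than 2-fold, at 528 and 413 CPM against 262, 298 and 314 CPM (log2 change 0.69, adjusted p = 0.0112). Vegfc had a log2 change of -3.21 without haematopoietic mesoderm sample 2. Nrp2 missed the adjusted p without Foxa2- CM sample 1 or haematopoietic mesoderm sample 1 (adjusted p = 0.0569 and 0.066).

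Pdgfrb, which was not part of the sort, fell as well. It read 7.72 and 36.3 CPM in haematopoietic mesoderm and 188, 198 and 229.7 CPM in Foxa2- CM (log2 change -3.25, SE 0.48, adjusted p = 0.0018), and the haematopoietic mesoderm samples differed from each other more for this gene than for Pdgfra. The ligand Pdgfa fell, at 24 and 13.5 CPM against 55.6, 57.7 and 45.4 CPM (log2 change -1.49, SE 0.27, adjusted p = 0.00459). Pdgfb, which endothelium secretes, read 55.5 and 54.3 CPM against 16.3, 20.6 and 38.2 CPM and missed the threshold (log2 change 1.13, adjusted p = 0.0813). Of the 6 genes of this pathway 3 fell, of which Pdgfra was fixed by the gate.

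In the Notch pathway, which sets arterial and blood-forming endothelium apart, 6 of 19 tested members rose, beside 5.24% of all tested genes. Notch1 read 323 and 258 CPM in haematopoietic mesoderm and 75.7, 79.1 and 111 CPM in Foxa2- CM (log2 change 1.71, SE 0.19, adjusted p = 0.000577), with 9.76% of its exonic bases shared with other genes, and Notch4, the receptor of endothelium, read 10.9 and 13.5 CPM against 4.77, 3.89 and 6.38 CPM (log2 change 1.27, adjusted p = 0.00587). Dll4, the arterial ligand, read 9.47 and 12.6 CPM against 0.31, 0.714 and 1.35 CPM (log2 change 3.76, SE 0.45, adjusted p = 0.000764). Mfng, an enzyme that adds sugars to Notch receptors, read 4.96 and 9.61 CPM against 1.05, 0.318 and 1.47 CPM (log2 change 2.88, SE 0.59, adjusted p = 0.00841). Dtx1 read 9.79 and 1.97 CPM against 0.867, 0.318 and 1.02 CPM (log2 change 2.96, adjusted p = 0.0138). Of the Hes and Hey targets, Hey2 rose, at 34.1 and 33.9 CPM against 8.54, 12.1 and 21.3 CPM (log2 change 1.28, adjusted p = 0.0394). Hes1 was lower at less than 2-fold, at 65.8 and 71.6 CPM against 103, 120.2 and 86.6 CPM (log2 change -0.59, adjusted p = 0.0156). Hey1 read 27.6 and 102 CPM against 104, 116 and 87 CPM (log2 change -0.67, adjusted p = 0.345), so the targets did not move in a single direction. Mfng lost its call without haematopoietic mesoderm sample 2 (adjusted p = 0.0509). Dtx1 lost its call without Foxa2- CM sample 2 or haematopoietic mesoderm sample 1 (adjusted p = 0.0518 and 0.153), and the log2 change was 1.37 without haematopoietic mesoderm sample 1. Hey2 lost its call without any sample but Foxa2- CM sample 3 (adjusted p from 0.0856 to 0.137). Hes1 missed the adjusted p without haematopoietic mesoderm sample 1 (adjusted p = 0.0703). Hey1 passed without haematopoietic mesoderm sample 2 (adjusted p = 0.0064).

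In the BMP, Nodal and TGF-beta pathway, 6 of 36 tested members rose and 8 fell, where 5.24% and 6.4% of all tested genes did. Among receptors, Tgfbr3, or betaglycan, read 183 and 112 CPM in haematopoietic mesoderm and 20.8, 22.5 and 27.7 CPM in Foxa2- CM (log2 change 2.64, SE 0.21, adjusted p = 0.000126). Tgfbr2 read 48.1 and 33.9 CPM against 12.7, 11.9 and 16.3 CPM (log2 change 1.59, SE 0.22, adjusted p = 0.00134). Both receptors rose. The BMP receptor Bmpr1b fell, at 1.32 and 2.44 CPM against 15, 14.5 and 17.9 CPM (log2 change -3.09, SE 0.34, adjusted p = 0.000523). Smad9, a signal transducer of BMP receptors, fell from 11.3, 10.8 and 15 CPM to 0.565 and 0.551 CPM (log2 change -4.45, SE 0.27, adjusted p = 5.04e-05). The groups did not overlap for any of these 4 genes. Of all tested genes, 22.9% lay above and 23.1% below all Foxa2- CM samples in this way. The ligands divided, with Bmp6 higher, at 32.7 and 42.1 CPM against 4.95, 6.83 and 17.7 CPM (log2 change 1.92, adjusted p = 0.0304), and Bmp7 lower, at 67.6 and 25 CPM against 97.6, 111 and 117 CPM (log2 change -1.22, adjusted p = 0.0464). Bmp4 passed just short of 2-fold, at 72.7 and 65.2 CPM against 123, 144 and 143 CPM (log2 change -0.99, adjusted p = 0.00114). The secreted inhibitors Nog, at 0.502 and 0.709 CPM against 7.62, 6.67 and 6.21 CPM (log2 change -3.49, adjusted p = 0.000764), and Fst, at 9.35 and 4.88 CPM against 48.7, 46.6 and 32 CPM (log2 change -2.55, adjusted p = 0.000764), fell. Lefty2, an inhibitor of Nodal, read 3.2 and 10 CPM against 39.1, 31.6 and 19.9 CPM (log2 change -2.22, adjusted p = 0.00966). Id4, a target and inhibitor of helix-loop-helix factors, rose, at 17 and 7.01 CPM against 3.41, 3.1 and 2.65 CPM (log2 change 1.98, adjusted p = 0.00537). Bmp6 lost its call without Foxa2- CM sample 1 or 2 or haematopoietic mesoderm sample 2 (adjusted p from 0.103 to 0.12). Bmp7 lost its call without any sample but haematopoietic mesoderm sample 1 (adjusted p from 0.084 to 0.167), and the log2 change was -2.12 without haematopoietic mesoderm sample 1 and -0.70 without haematopoietic mesoderm sample 2. Id4 had a log2 change of 1.20 without haematopoietic mesoderm sample 1.

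Of the FGF ligands that passed, Fgf3 rose and the others fell. Of 25 tested members 7 fell and 2 rose, beside 6.4% and 5.24% of all tested genes. Beside Fgf8, Fgf5 of the epiblast read 3.58 and 4.02 CPM in haematopoietic mesoderm and 24.8, 20.1 and 10.6 CPM in Foxa2- CM (log2 change -2.28, SE 0.44, adjusted p = 0.0063), and Fgf9 0.188 and 0.236 CPM against 1.98, 1.35 and 1.35 CPM and Fgf1 0.188 and 0.394 CPM against 1.61, 1.27 and 1.02 CPM were near the limit of detection in haematopoietic mesoderm. Flrt3, a membrane protein that promotes FGF signalling, read 13.9 and 32.6 CPM against 82.1, 89.5 and 101 CPM (log2 change -1.98, SE 0.31, adjusted p = 0.00232). Fgf3 stood against them and was higher in both haematopoietic mesoderm samples, at 185 and 179.9 CPM against 85.2, 79.1 and 88.8 CPM (log2 change 1.11, SE 0.13, adjusted p = 0.000657). The phosphatase Dusp4, which ERK signalling induces, rose, at 244 and 190.3 CPM against 91.6, 86.2 and 67.6 CPM (log2 change 1.41, SE 0.14, adjusted p = 0.000303), at up to 1.42 counts per exonic base. The receptor Fgfr2 read 12.6 and 16.4 CPM against 47.1, 58.7 and 133 CPM and did not pass (log2 change -2.46, adjusted p = 0.0567). Fgf1 lost its call without haematopoietic mesoderm sample 1, where its log2 change was -1.7.

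In the Wnt pathway, 13 of 39 tested members fell and 2 rose, beside 6.4% and 5.24% of all tested genes. The share that rose was near that of all genes. Wnt5a, a ligand of beta-catenin-independent signalling that is needed for lateral mesoderm, read 56.4 and 48 CPM in haematopoietic mesoderm and 225, 264 and 262 CPM in Foxa2- CM (log2 change -2.26, SE 0.22, adjusted p = 0.000305; chr14:28504750-28527448). Wnt5b read 13.1 and 6.38 CPM against 68.8, 67.2 and 56.7 CPM (log2 change -2.71, SE 0.29, adjusted p = 0.000481). Wnt4 read 1.51 and 4.65 CPM against 22.2, 23.1 and 41.9 CPM (log2 change -3.26, SE 0.68, adjusted p = 0.00886). Wnt3, a ligand of the streak, was lower at less than 2-fold, at 79.4 and 102 CPM against 163, 174 and 139 CPM (log2 change -0.80, adjusted p = 0.00176). The secreted inhibitor Dkk1 fell, at 11.2 and 13.3 CPM against 94, 96 and 64.7 CPM (log2 change -2.79, SE 0.34, adjusted p = 0.000784). Dkk2 had no count in either haematopoietic mesoderm sample and read 3.28, 3.41 and 10.3 CPM in Foxa2- CM, which is at least 54.2-fold lower against a floor of 3 counts over the group (adjusted p = 0.0205). Without haematopoietic mesoderm sample 1 or 2 it missed the threshold (adjusted p = 0.0621 and 0.0669). Dkk3, a member of the same family, read 1 and 0.394 CPM against 2.66, 3.25 and 6.04 CPM (log2 change -2.47, adjusted p = 0.0106). The receptors that rose were Lgr5, which binds R-spondins, at 288 and 144 CPM against 17.9, 25.1 and 55.3 CPM (log2 change 2.71, SE 0.51, adjusted p = 0.00571), and Fzd10, at 167 and 171 CPM against 50.3, 53.6 and 73.5 CPM (log2 change 1.52, SE 0.31, adjusted p = 0.00831). Both haematopoietic mesoderm samples were above all Foxa2- CM samples for Lgr5 and Fzd10, as they were for 22.9% of all tested genes. Dkk3 lost its call without haematopoietic mesoderm sample 2 (adjusted p = 0.0643).

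**Figure D4:**
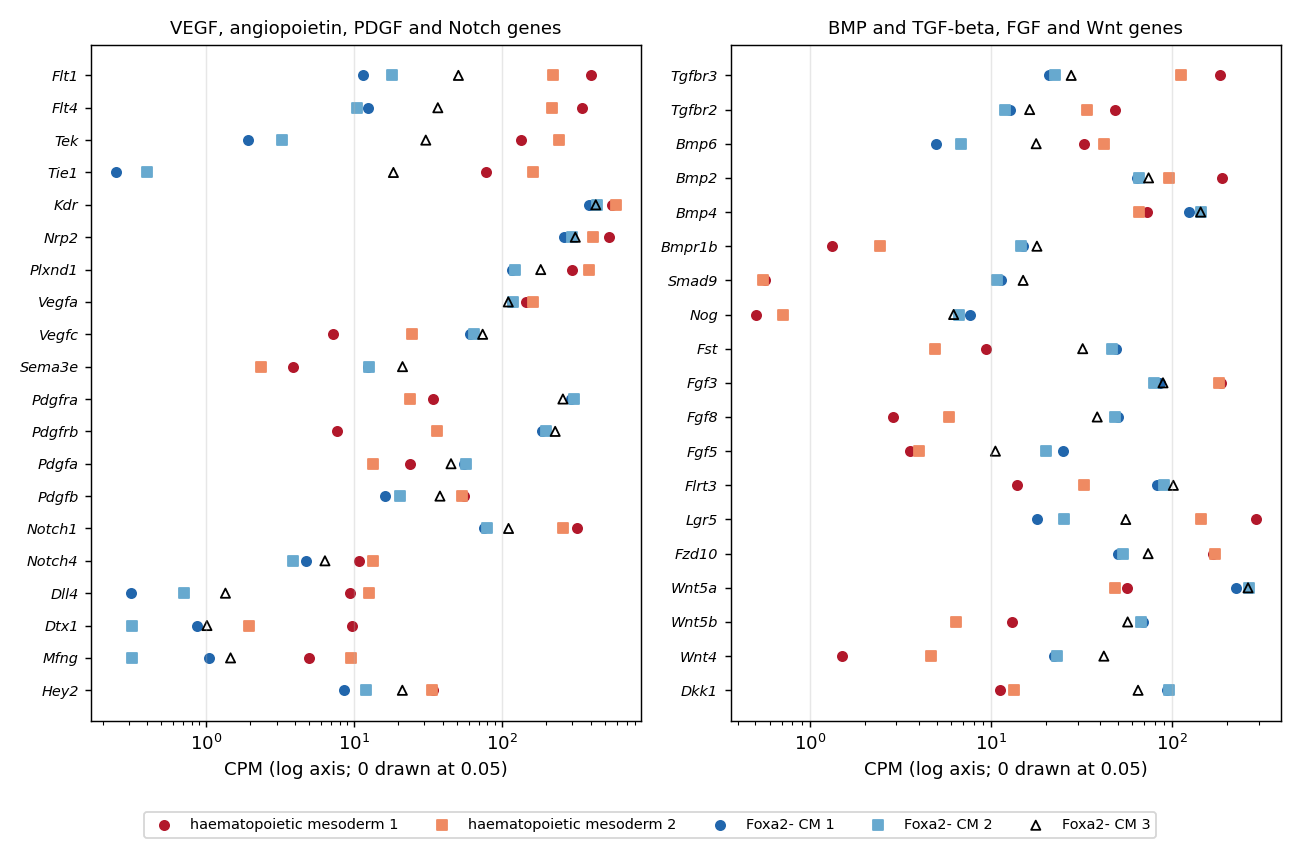
CPM of selected signalling genes on a log x axis, 1 row per gene, with VEGF, angiopoietin, PDGF and Notch genes on the left and BMP and TGF-beta, FGF and Wnt genes on the right. Red circles and orange squares are haematopoietic mesoderm samples 1 and 2, blue symbols are Foxa2- CM samples 1 and 2, and open triangles are Foxa2- CM sample 3. Both haematopoietic mesoderm samples lie right of all Foxa2- CM samples for Flt1, Flt4, Notch1, Tgfbr3 and Fgf3, and left of them for Pdgfrb, Vegfc, Smad9, Fgf8 and Wnt5a.

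Receptors of migration cues divided between the populations. Of 9 tested chemokine, apelin and sphingosine 1-phosphate genes 2 rose and 5 fell, and 3 fell without Foxa2- CM sample 1 or 2. Aplnr, the apelin receptor of migrating mesoderm, read 302 and 312 CPM in haematopoietic mesoderm and 83.2, 87.5 and 137 CPM in Foxa2- CM (log2 change 1.58, SE 0.41, adjusted p = 0.0229). S1pr1, a sphingosine 1-phosphate receptor of endothelium and blood cells, read 65.7 and 61.6 CPM against 15.9, 17.6 and 32.3 CPM (log2 change 1.53, SE 0.29, adjusted p = 0.00538). Cxcr4, the receptor of Cxcl12, fell, at 18.6 and 24.3 CPM against 103, 117 and 96.2 CPM (log2 change -2.30, SE 0.26, adjusted p = 0.000589). S1pr2 read 32.4 and 39.5 CPM against 85.1, 88.5 and 115 CPM (log2 change -1.42, SE 0.16, adjusted p = 0.000513). S1pr3, another receptor of this lipid, read 0.502 and 0.473 CPM against 2.23, 2.3 and 2.54 CPM (log2 change -2.25, adjusted p = 0.0071). Apela, the other apelin receptor ligand, had no count in haematopoietic mesoderm and 11 counts in Foxa2- CM together, at least 2.16-fold lower (adjusted p = 0.0427). It missed the adjusted p with each sample left out (0.0535 to 0.131), with DESeq2 (adjusted p = 0.0944), with the replicate block and without the filter on low counts. The ligand Apln read 5.52 and 4.33 CPM against 17.7, 14.1 and 7.28 CPM (log2 change -1.39, adjusted p = 0.0215). Ackr3, a scavenging receptor for Cxcl12, was at 13.2 CPM in haematopoietic mesoderm sample 1, at 74.4 CPM in sample 2 and at 103, 118 and 126 CPM in Foxa2- CM (log2 change -1.41, adjusted p = 0.0985). Beside 5.24% and 6.4% of all tested genes, 4 of 32 guidance genes rose and 6 fell, the latter fewer without haematopoietic mesoderm sample 2. They were led by Plxnc1, a plexin, at 20 and 41.6 CPM against 1.49, 1.27 and 4.01 CPM (log2 change 3.74, adjusted p = 0.00123), and Epha3, an Eph receptor, at 0.439 and 0.394 CPM against 2.41, 2.94 and 1.07 CPM (log2 change -2.31, adjusted p = 0.0159). Robo4, the roundabout receptor of endothelium, read 19.9 and 5.51 CPM against 1.92, 2.3 and 2.82 CPM (log2 change 2.43, adjusted p = 0.00704), and Sema3a, a secreted semaphorin, read 48.9 and 50.4 CPM against 14.9, 16.5 and 22.5 CPM (log2 change 1.46, adjusted p = 0.0305). Sema5a at 21.2 and 29.1 CPM against 64.5, 75.3 and 114 CPM (log2 change -1.75, adjusted p = 0.00356), and the ephrins Efna1 at 10.4 and 11.4 CPM against 27.9, 31.2 and 39.2 CPM (log2 change -1.59, adjusted p = 0.00147) and Efnb1 at 34.1 and 35.4 CPM against 87.9, 82.2 and 82.4 CPM (log2 change -1.28, adjusted p = 0.0148), fell. Aplnr lost its call without any sample but Foxa2- CM sample 3 (adjusted p from 0.0502 to 0.0969). Apln lost its call without any sample but Foxa2- CM sample 3 (adjusted p from 0.052 to 0.103). Ackr3 passed without haematopoietic mesoderm sample 2 (adjusted p = 0.000625). Epha3 lost its call without haematopoietic mesoderm sample 1 or 2 (adjusted p = 0.0623 and 0.0687). Robo4 had a log2 change of 1.23 without haematopoietic mesoderm sample 1. Sema3a lost its call without any sample but Foxa2- CM sample 3 (adjusted p from 0.0555 to 0.113). Efnb1 lost its call without haematopoietic mesoderm sample 1 or 2 (adjusted p = 0.0526 and 0.0516). Sema3a missed the adjusted p with DESeq2 (adjusted p = 0.0655).

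Adhesion and matrix genes divided too. Of 17 tested cadherins and regulators of the epithelial-mesenchymal transition 7 fell and 2 rose, beside 6.4% and 5.24% of all tested genes. Those that rose were Cdh5 and Zeb2. Cdh3, or P-cadherin, read 2.64 and 2.68 CPM in haematopoietic mesoderm and 23.7, 30.9 and 38.4 CPM in Foxa2- CM (log2 change -3.54, SE 0.27, adjusted p = 9.98e-05). Cdh11, a cadherin of mesenchyme, read 128 and 138 CPM against 274, 324 and 279.7 CPM (log2 change -1.14, SE 0.09, adjusted p = 0.000144). Cdh6 read 3.26 and 3.94 CPM against 16.2, 18.6 and 23.4 CPM (log2 change -2.43, adjusted p = 0.00228), and the protocadherin Pcdh18 read 55.3 and 46.5 CPM against 124, 146 and 169.6 CPM (log2 change -1.53, adjusted p = 0.00121). Snai1, which represses E-cadherin, read 24.7 and 13.2 CPM against 92.3, 98.1 and 61.7 CPM (log2 change -2.14, SE 0.32, adjusted p = 0.00187). In interstitial matrix, 4 of 19 fell and 3 rose, beside 6.4% and 5.24% of all tested genes, with 1 rising without Foxa2- CM sample 2. Hapln1, a link protein that holds hyaluronan to proteoglycans, rose, at 196 and 259 CPM against 1.92, 1.83 and 27.5 CPM (log2 change 4.40, SE 0.98, adjusted p = 0.0119), and Foxa2- CM sample 3 lay above the other CM samples. Col1a1, the main chain of collagen I, fell, at 10.1 and 23.2 CPM against 79.4, 103 and 270.0 CPM (log2 change -3.19, SE 0.79, adjusted p = 0.0192). The cartilage collagens Col2a1, at 7.34 and 2.84 CPM against 25.9, 21.6 and 27.8 CPM (log2 change -2.28, adjusted p = 0.0124), and Col9a1, at 4.27 and 1.73 CPM against 17.9, 22.9 and 32.8 CPM (log2 change -3.01, adjusted p = 0.00413), fell as well. Col6a3 had 1 count in haematopoietic mesoderm and 32 in Foxa2- CM, a ratio of 19.7 with a 95% counting interval from 3.29 to 803. It missed the adjusted p without haematopoietic mesoderm sample 1 or 2 and with DESeq2 (adjusted p = 0.0688). Fits without a Foxa2- CM sample did not test it. Fbn1, the fibrillin of microfibrils, read 153 and 255 CPM against 48.4, 58.6 and 101 CPM (log2 change 1.55, adjusted p = 0.0103), and Col5a2 read 42.5 and 32.7 CPM against 13.9, 14.4 and 22.9 CPM (log2 change 1.14, adjusted p = 0.0123). Of 16 basement membrane genes 1 rose, near the 5.24% of all tested genes. It was Col18a1, at 265 and 308 CPM against 72.4, 88 and 175 CPM (log2 change 1.36, adjusted p = 0.0176). The abundant fibronectin gene Fn1 read 956 and 1149 CPM against 902, 1115 and 848 CPM (log2 change 0.14, adjusted p = 0.511). Hapln1 had a log2 change of 6.91 without Foxa2- CM sample 3. Col1a1 lost its call without haematopoietic mesoderm sample 1 (adjusted p = 0.0888). Col2a1 lost its call without haematopoietic mesoderm sample 2 (adjusted p = 0.0727). Fbn1 lost its call without Foxa2- CM sample 2 or haematopoietic mesoderm sample 2 (adjusted p = 0.0521 and 0.0885). Col5a2 lost its call without Foxa2- CM sample 1 or 2 or haematopoietic mesoderm sample 1 (adjusted p from 0.0588 to 0.0601). Col18a1 lost its call without Foxa2- CM sample 1 or 2 or haematopoietic mesoderm sample 2 (adjusted p from 0.0642 to 0.0884).

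**Figure D5:**
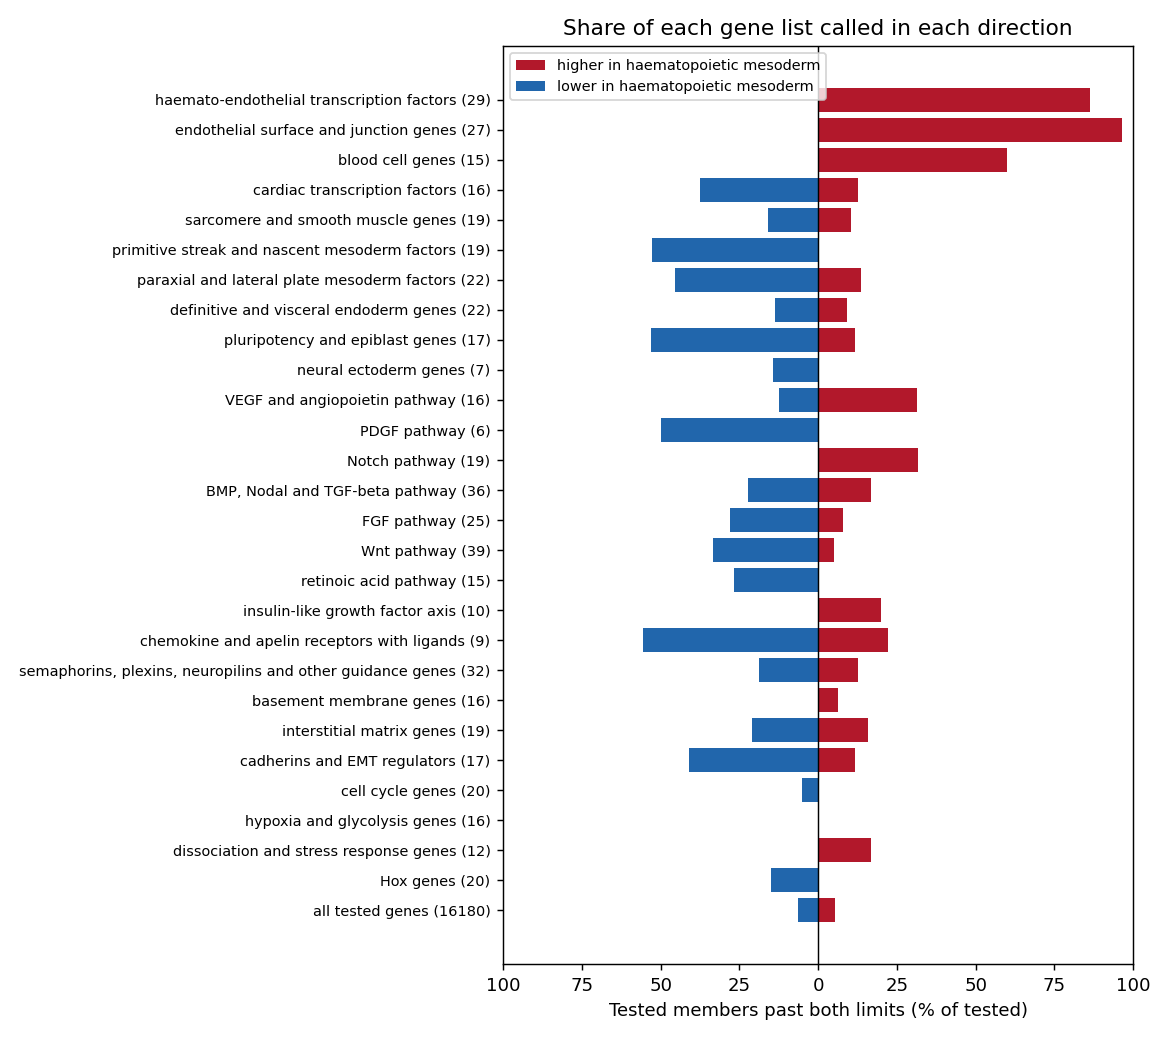
Share of the tested members of each gene list that rose (red, to the right) or fell (blue, to the left) in haematopoietic mesoderm, in percent, with the number of tested members in brackets. The bottom row shows all 16180 tested genes, of which 5.24% rose and 6.4% fell. The haemato-endothelial, endothelial and blood lists reach furthest right, the streak, pluripotency and PDGF lists are among those that reach furthest left, and no bar is drawn for hypoxia and glycolysis genes.

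The genes with the largest changes were also read over all genes. Among genes with at least 50 counts on average and no overlap between groups, the 10 that rose most lay between 4.65 and 5.05 on the log2 scale. Epb42, a protein of the red cell membrane skeleton, had no count in Foxa2- CM samples 1 and 2, at 8.72 and 11.1 CPM in haematopoietic mesoderm and 0, 0 and 0.79 CPM in Foxa2- CM (log2 change 5.05, SE 0.92, adjusted p = 0.0047). Gimap4 and Gimap8, GTPases known from lymphocytes, read 17.9 and 23.9 CPM against 0.0619, 0.159 and 1.58 CPM and 15.1 and 13.3 CPM against 0.0619, 0.159 and 1.07 CPM (log2 change 5.01, adjusted p = 0.00519, and log2 change 4.93, adjusted p = 0.00336). Il9r, a cytokine receptor of blood cells, read 14.9 and 12.9 CPM against 0.248, 0.159 and 0.903 CPM (log2 change 4.89, adjusted p = 0.000304). Adora2a, an adenosine receptor, read 60.8 and 69.1 CPM against 0.495, 0.873 and 6.09 CPM (log2 change 4.65, adjusted p = 0.00387). Nrip3 read 129 and 113 CPM against 1.8, 1.11 and 8.24 CPM (log2 change 4.97, adjusted p = 0.00122). Aqp8, a water channel, Galnt18, a glycosyltransferase, and Gm14204 completed the 10 with Nos3. By difference in CPM, Arap3, a regulator of small GTPases in endothelium, at 252 and 374 CPM against 12.5, 10.7 and 60.7 CPM (log2 change 3.46, SE 0.68, adjusted p = 0.00655), and Pde4dip, at 375 and 409 CPM against 110.2, 92.6 and 144 CPM (log2 change 1.76, adjusted p = 0.000783), stood beside Flt1, Flt4 and Tal1. Gimap4 had a log2 change of 7.52 without Foxa2- CM sample 3. Epb42 missed the adjusted p with DESeq2 (adjusted p = 0.104).

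The 10 genes that fell most by the same rule included Dkk2, described above, and Ankrd63. Tuba8, an alpha tubulin, read 0.188 and 0.551 CPM in haematopoietic mesoderm and 19, 17.1 and 7 CPM in Foxa2- CM (log2 change -5.31, SE 0.75, adjusted p = 0.00145). Syt6, a synaptotagmin, read 0.314 and 0.394 CPM against 8.17, 9.84 and 13.4 CPM (log2 change -4.87, adjusted p = 0.00104). Htr1d, a serotonin receptor, read 0.125 and 0.709 CPM against 14, 11.2 and 13.3 CPM (log2 change -5.0, adjusted p = 0.000636). Insrr, a receptor related to the insulin receptor, read 0.0627 and 0.709 CPM against 7.18, 8.26 and 14.1 CPM (log2 change -4.74, adjusted p = 0.00217). Foxo6, a forkhead factor, read 0.439 and 0.236 CPM against 16, 11.2 and 5.53 CPM (log2 change -4.94, adjusted p = 0.00132). Fibcd1, a chitin-binding receptor, read 0.376 and 1.1 CPM against 23.8, 20.6 and 14.7 CPM (log2 change -4.77, adjusted p = 0.000241). Usp18, which removes the ubiquitin-like modifier Isg15, read 0.502 and 1.34 CPM against 35.7, 29.2 and 16.9 CPM (log2 change -4.92, SE 0.58, adjusted p = 0.000706). The uncharacterised Gm6116 had 2 counts in haematopoietic mesoderm and 359 in Foxa2- CM, a ratio of 110.6 with a 95% counting interval from 30.4 to 916.9. Ahnak, a large scaffold protein, was with Pdgfra, Pdgfrb, Eomes and Wnt5a among the 5 largest losses in CPM, at 58.9 and 69.8 CPM against 173, 251 and 454 CPM (log2 change -2.19, SE 0.41, adjusted p = 0.0055). In 17 of the 1036 genes that fell, both haematopoietic mesoderm samples had no count. Insrr had a log2 change of -7.14 without haematopoietic mesoderm sample 2.

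The 2 haematopoietic mesoderm samples differed from each other for part of the genes called. Of the 848 genes that rose, 101 were at least 2-fold higher in sample 1 and 78 at least 2-fold higher in sample 2, on a scale of CPM with 0.5 added. Of all 16180 tested genes 1012 and 402 were. Klf2, a factor that shear stress induces in endothelium, was at 61.7 CPM in sample 1 and 5.28 CPM in sample 2, against 3.59, 3.1 and 2.54 CPM in Foxa2- CM. Its log2 change of 3.45 (adjusted p = 0.0105) was 0.78 without sample 1 (adjusted p = 0.127). Adgrl4, an adhesion receptor of endothelium, was at 1.32 CPM in sample 1 and 16.5 CPM in sample 2. Its log2 change of 4.19 was 1.42 without haematopoietic mesoderm sample 2. The call of Adgrl4 was lost without Foxa2- CM sample 1 or 2 (adjusted p = 0.0865 and 0.0794) and with the 5 samples alone. Among genes that fell, Mesp1 at 11.4 and 1.10 CPM, Susd5 at 1.13 and 0.0788 CPM, Igfbpl1 at 2.82 and 0.315 CPM and Adgrb1 at 1.32 and 0.158 CPM were higher in sample 1. Meox1 at 0 and 2.68 CPM, Cygb at 0.0627 and 0.945 CPM and Ankrd63 at 0 and 0.788 CPM were higher in sample 2. Fewer genes were called lower without sample 2 (808) than without sample 1 (1280), and the reverse held for genes called higher (936 without sample 2 and 743 without sample 1). Meox1 lost its call without Foxa2- CM sample 1 or 2 or 3 (adjusted p from 0.0715 to 0.0989), and the log2 change was -1.81 without haematopoietic mesoderm sample 1. Igfbpl1 lost its call without Foxa2- CM sample 1 or 2 or haematopoietic mesoderm sample 2 (adjusted p from 0.0636 to 0.0787), and the log2 change was -5.12 without haematopoietic mesoderm sample 1. Meox1 missed the adjusted p with DESeq2 (adjusted p = 0.0881).

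Genes of other cell types were read to see what the gates could hold. Of 22 tested endoderm genes 3 fell and 2 rose, where 6.4% and 5.24% of all tested genes did. The summed level of the list was 216 and 197 CPM in haematopoietic mesoderm, 283 to 315 CPM in Foxa2- CM and 1642 to 1840 CPM in sorted endoderm. Sox17, which endothelium and endoderm share, rose, at 25.3 and 21 CPM against 4.64, 3.18 and 8.58 CPM (log2 change 2.06, adjusted p = 0.00372). Cer1 read 2.95 and 2.21 CPM against 0.743, 1.11 and 0.79 CPM (log2 change 1.58, adjusted p = 0.0105). Krt19, a keratin, fell, at 6.4 and 8.74 CPM against 39.6, 46 and 28.7 CPM (log2 change -2.33, adjusted p = 0.00189), as did Epcam of epithelia, at 12.8 and 9.92 CPM against 39.1, 32.5 and 26.3 CPM (log2 change -1.52, adjusted p = 0.00145). Foxa1, a forkhead factor of endoderm, read 0.878 and 0.866 CPM in haematopoietic mesoderm and 1.86, 1.98 and 1.98 CPM in Foxa2- CM (log2 change -1.14, adjusted p = 0.0225). Without Foxa2- CM sample 3, 6 members of the list rose in place of 2, and for Apob the log2 change of 1.03 became 5.03 (adjusted p = 0.0138). Their part in the other results was not tested. Of 7 tested neural genes 1 fell, where 6.4% of all tested genes did. It was Sox3, at 0.565 and 2.84 CPM against 9.29, 10.1 and 13.5 CPM (log2 change -2.74, adjusted p = 0.00391). Cer1 lost its call without haematopoietic mesoderm sample 1 (adjusted p = 0.0588). Foxa1 lost its call without Foxa2- CM sample 2 or haematopoietic mesoderm sample 1 or 2 (adjusted p from 0.0505 to 0.0876). Sox3 had a log2 change of -4.28 without haematopoietic mesoderm sample 2.

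Genes of the cell cycle, of glycolysis and of stress were read beside the 11.6% of all tested genes that passed both limits. Of 20 cell cycle genes 1 did, the inhibitor Cdkn1c, which fell, at 7.15 and 3.39 CPM in haematopoietic mesoderm and 32.1, 31.7 and 15 CPM in Foxa2- CM (log2 change -2.30, adjusted p = 0.0347). The proliferation marker Mki67 read 607 and 612 CPM against 491, 550.2 and 549 CPM (log2 change 0.20, adjusted p = 0.065). Of 16 hypoxia and glycolysis genes none passed both limits with edgeR, 3 had an unadjusted p under 0.05, and none passed with DESeq2. Of 12 genes that respond to dissociation and stress 2 rose, Atf3 at 111 and 88.7 CPM against 19.4, 12.9 and 16.1 CPM (log2 change 2.63, SE 0.22, adjusted p = 0.00016) and Jun at 203 and 158 CPM against 72.4, 84.4 and 94.5 CPM (log2 change 1.11, adjusted p = 0.00225), and the summed level of the list was 1449 CPM and 976 CPM in the haematopoietic mesoderm samples and 800.0 to 997 CPM in Foxa2- CM. Atf3 alone rose without haematopoietic mesoderm sample 1 or Foxa2- CM sample 1. Whether handling differed between the sorts was not tested. Cdkn1c lost its call without Foxa2- CM sample 1 or 2 or haematopoietic mesoderm sample 2 (adjusted p from 0.0852 to 0.155). Jun was under 2-fold without Foxa2- CM sample 1 or haematopoietic mesoderm sample 1.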

How the data were processed

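RNA of sorted cells was sequenced as 50 nt single-end reads from a kit that does not mark strand. The authors aligned reads to mm10 with STAR 2.5.0a, removed duplicate reads with Picard and deposited raw counts per gene from HTSeq 0.6.0, which are the values used here. Of uniquely aligned reads 23.9% to 27.8% were on no gene or could not be assigned to a single gene, and stayed out of library sizes. Because strand was not marked, counts are uncertain where exons of other genes cover part of a gene named here, such as Cdkn1c (30.7%), Hopx (27.2%), Pdgfa (26.1%), Fbn1 (20.1%), Hand2 (19.6%), Sox17 (16.8%) and Tuba8 (16.3%). Symbols and positions came from GENCODE M21 (GRCm38), which matched 37607 of 38924 gene identifiers.

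Counts were tested with edgeR 4.0.16 (R 4.3.3): TMM scaling, default filterByExpr over the 4 groups, 1 quasi-likelihood model of all 10 samples, and the contrast of haematopoietic mesoderm with Foxa2- CM. Limits were a Benjamini-Hochberg adjusted p of 0.05 and 2-fold. The SE of a log2 change is its size over the root of the F statistic. Alternatives were DESeq2 1.42.0, other scalings, filters and sample sets, a replicate block, a test against a 2-fold change, and each sample left out. In data simulated for this comparison over 16180 genes, edgeR recovered 74% of genes changed 2-fold and 93% of those changed 4-fold. It called 7 unchanged genes. These rates describe the simulated data only. The haematopoietic mesoderm samples differed from each other more than any pair of Foxa2- CM samples did. Whether the rates hold for such a spread was not tested.

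The comparison, the 27 gene lists and the rule for naming genes were chosen with earlier results of these data known. Named were the 10 genes with the largest change in each direction (mean of at least 50 counts, no overlap), the 5 with the largest difference in CPM in each direction, the sorted genes, up to 5 members of each list in each direction, and the 5 that differed most between the haematopoietic mesoderm samples in each direction. Other members were named after their values were seen, and a few items are not reported here. Haematopoietic mesoderm sample 1 shares its sequencing index with a Foxa2+ CM library and sample 2 with an endoderm library, so these libraries cannot have shared a pool. Sequencing pools are not given in the sources used here.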

Additional observations from a re-analysis of the deposited data

How the results depend on the processing

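The 848 higher and 1036 lower genes became 341 and 343 when edgeR tested against a 2-fold change, and higher genes became 551 when a level of 5 CPM in 2 samples was required, a setting that tests fewer genes. The 3492 genes that differed at any fold became 684 against a 2-fold change and 2159 with the 5 samples alone, and lay between 2140 and 3422 with each sample left out, the lowest without Foxa2- CM sample 1. Higher genes lay between 619 and 936 and lower genes between 789 and 1280 with a sample left out. Where a haematopoietic mesoderm sample was left out, the remaining one was assumed to vary like the other groups. DESeq2, 2 other scalings, no filter on low counts and the 8 mesoderm samples kept all 3 counts within 1.5 times. No source used here says that samples with the same replicate number came from the same culture, so the numbers were not taken as pairs. Their deviations correlated at 0.167 for number 1 and -0.012 for number 2. The deviations of the 2 haematopoietic mesoderm samples mirror each other, so these values cannot decide whether samples were paired. In a fit blocked on that number 916 genes were higher, 1108 lower and 3557 different at any fold. Of 182 named genes that rose or fell, 92 kept direction and both limits in every alternative tested, 127 did so with each sample left out, and none changed sign. The call was lost by 89 against a 2-fold change, by 27 with the 5 samples alone, by 8 with DESeq2, by 5 with the replicate block and by at most 3 with another scaling, filter or the 8 mesoderm samples. Among other named genes the direction changed with a sample left out for Kit (-0.43 to 0.48), Klf4 (-0.96 to 2.31), T (-0.23 to 1.13), Tnnt2 (-1.46 to 0.16) and Fn1 (-0.016 to 0.27). DESeq2 gave no adjusted p for Cdh5, Hapln1, Tek and Tie1. The causes were not tested beyond the samples left out. Genes under 3 counts a library are beyond this depth.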

Other observations

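Some gene groups belong to no lineage of the comparison. Of 10 tested genes of the insulin-like growth factor axis 2 rose, beside 5.24% of all tested genes. None did without Foxa2- CM sample 1 or 2. Igf1 read 12.5 and 39.1 CPM in haematopoietic mesoderm and 0.124, 0.0794 and 3.16 CPM in Foxa2- CM (log2 change 4.43, SE 1.05, adjusted p = 0.0162). Igfbp5, a binding protein of these factors, read 43.7 and 36.4 CPM against 7, 9.05 and 17.7 CPM (log2 change 1.82, adjusted p = 0.0297). The imprinted ligand Igf2 was abundant in both populations, at 335 and 396 CPM against 225, 295 and 279 CPM (log2 change 0.46, adjusted p = 0.289). Igf1 lost its call without Foxa2- CM sample 1 or 2 or haematopoietic mesoderm sample 2 (adjusted p from 0.054 to 0.078), and the log2 change was 7.83 without Foxa2- CM sample 3. Igfbp5 lost its call without any sample but Foxa2- CM sample 3 (adjusted p from 0.0682 to 0.111). Igf1 missed the adjusted p with DESeq2 (adjusted p = 0.0691).

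In the retinoic acid pathway 4 of 15 tested members fell, beside 6.4% of all tested genes, and 2 did without Foxa2- CM sample 1 or 3. Crabp2, which carries retinoic acid inside cells, read 3.45 and 2.6 CPM in haematopoietic mesoderm and 12.8, 13.9 and 12.5 CPM in Foxa2- CM (log2 change -2.10, SE 0.26, adjusted p = 0.000782). Cyp26b1, which degrades it, read 2.76 and 2.05 CPM against 12.2, 7.38 and 7 CPM (log2 change -1.87, SE 0.33, adjusted p = 0.00407). Aldh1a3, which makes it, read 0.251 and 1.02 CPM against 3.28, 2.3 and 4.97 CPM (log2 change -2.52, adjusted p = 0.0279). Rbp4, which carries retinol, read 4.14 and 3.31 CPM against 8.36, 6.35 and 7.73 CPM (log2 change -1.0, adjusted p = 0.0132). Of 20 tested Hox genes 3 fell, all at low counts, where 6.4% of all tested genes did. Hoxa11, a gene of the posterior HoxA cluster, read 0 and 0.315 CPM against 2.11, 3.25 and 7.11 CPM (log2 change -4.80, adjusted p = 0.0137). Its exons overlap an antisense gene over 35.0% of their bases. Hoxa10 read 0 and 0.394 CPM against 1.11, 1.19 and 4.63 CPM (log2 change -3.66, adjusted p = 0.0343), and Hoxc6 had 2 counts in haematopoietic mesoderm and 60 in Foxa2- CM, a ratio of 18.5 with a 95% counting interval from 4.9 to 156. The summed Hox level was 60.6 and 99.2 CPM in haematopoietic mesoderm, and 94.3, 97.5 and 192 CPM in Foxa2- CM samples 1, 2 and 3. Aldh1a3 lost its call without Foxa2- CM sample 1 or 3 or haematopoietic mesoderm sample 1 (adjusted p from 0.0615 to 0.122), and the log2 change was -3.80 without haematopoietic mesoderm sample 2. Rbp4 lost its call without haematopoietic mesoderm sample 2 (adjusted p = 0.0646). Rbp4 was under 2-fold without Foxa2- CM sample 1 or 3. Hoxa11 lost its call without haematopoietic mesoderm sample 1 (adjusted p = 0.0501). Hoxa10 lost its call without Foxa2- CM sample 3 or haematopoietic mesoderm sample 1 (adjusted p = 0.0662 and 0.131), and the log2 change was -8.15 without haematopoietic mesoderm sample 2. Hoxc6 lost its call without Foxa2- CM sample 1 (adjusted p = 0.0526) or haematopoietic mesoderm sample 1 or 2. Fits without Foxa2- CM sample 2 or 3 did not test it. Its log2 change was -7.25 without haematopoietic mesoderm sample 2. Hoxc6 also lost its call with DESeq2 (adjusted p = 0.0726), another scaling, the 5 samples alone, the 8 mesoderm samples and the replicate block.

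In Foxa2+ CM, sorted from the same kind of culture, mean levels over 3 samples were 74.9 CPM for Tal1, 70.4 CPM for Tbx2, 179.9 CPM for Pdgfrb, 136 CPM for Wnt5a and 5.86 CPM for Nanog.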
